A study of Mus musculus with 24 samples.

Results

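The 9 genes Tmem8c, Cdh15, Cdh2, Ncam1, Cav3, Myof, Dysf, Jam2 and Jam3 encode proteins of myoblast adhesion, cell fusion and plasma membrane repair. They were chosen by gene symbol from a table of 24043 genes, all 9 were found, and all 9 were among the 12389 genes tested, those whose mean reached 1 FPKM in 1 group or more. Cav3 passed that filter only through the group in which it was high, normoxic differentiation medium. FPKM is the number of fragments scaled for transcript length and for library size, so levels of different genes can be set side by side. Between libraries, small differences still depend on the scaling, as given below. The cells are C2C12, an established mouse myoblast line with no added genetic change named in the labels. Growth medium held 10% fetal bovine serum, and differentiation medium held 2% horse serum, insulin, transferrin and selenium. Each medium was used at 21% oxygen (normoxia) and at 2% oxygen (hypoxia), with 2 RNA-seq libraries (A and B, called biological replicates by the submitters) in each of the 4 groups. Growing cells were kept below confluence and the differentiation cultures were held for days, so medium, cell density and time in culture cannot be told apart. The length of the hypoxic exposure is not given in the sources used here.

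Myoblasts that leave the cell cycle line up, adhere to each other and merge their plasma membranes into multinucleated myotubes. Cadherins and immunoglobulin-type receptors hold the membranes together across the contact. Myomaker, encoded by Tmem8c (current symbol Mymk), and the small protein myomerger (Mymx, listed here as Gm7325) act at the merger itself. Ferlins are calcium-binding proteins that bring vesicles to the plasma membrane, and caveolins coat the small membrane pits called caveolae that muscle fibres use to buffer stretch. Losses of dysferlin or caveolin-3 cause muscular dystrophies.

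The relative depth of the 8 libraries, read from the steps between low values, ran from 0.632 to 1, and both extremes were hypoxic differentiation libraries (B and A). Those 2 libraries also stood apart in proliferation: the summed level of 8 cell cycle markers was 33.4 FPKM in A and 196 FPKM in B, against 39.0 and 39.4 in normoxic differentiation medium, 111 to 127 in hypoxic growth medium and 214 to 231 in normoxic growth medium. The summed level of 9 myotube markers was 13164 and 13412 FPKM in normoxic differentiation medium and at most 46.9 FPKM in any other library. The summed level of 6 myoblast markers, of which Cdh15 is one, was 492 and 414 FPKM in normoxic and 123 and 130.3 FPKM in hypoxic growth medium, and 795 and 782 FPKM in normoxic and 66.7 and 95 FPKM in hypoxic differentiation medium. Each of the 6 was lower in the hypoxic than in the normoxic libraries of the same medium: Des, which led the list, was 228 and 194 against 60.3 and 66.4 FPKM in growth medium and 484 and 474 against 28.6 and 53.1 FPKM in differentiation medium. As checks of state, Car9, a hypoxia-induced carbonic anhydrase, was between 662 and 886 FPKM in the hypoxic libraries and between 43.9 and 83.2 FPKM in the normoxic ones. Myog, an early differentiation factor, was 2576 and 2642 FPKM in normoxic differentiation medium and at most 13.3 FPKM elsewhere, and the proliferation marker Mki67 was 3.46 and 23.6 FPKM in hypoxic differentiation libraries A and B. Endothelial and adipocyte markers were nearly absent, with 0 of 6 and 0 of 5 reaching a group mean of 1 FPKM. The leukocyte list reached that level with 1 of its 6 genes, Cd68, which was 25.8 and 42.8 FPKM in hypoxic differentiation medium and at most 3.57 FPKM elsewhere, while Emr1 was listed at 0 throughout and Ptprc reached at most 0.0137 FPKM. The Schwann and neural list (3 of 6 genes at 1 FPKM or more) was led by Tubb3, at 36.8 and 65.7 FPKM in that group and between 3.91 and 15.1 FPKM elsewhere, with Sox10 at most 0.0252 FPKM. In the fibroblast list (4 of 6), summed levels were 36.0 and 32.9 FPKM in normoxic differentiation medium and between 6.3 and 17.7 FPKM elsewhere, but its genes ran in opposite directions. Between normoxic growth and differentiation medium Dpt went from 0.997 and 1.0 to 22.7 and 22.1 FPKM and Col15a1 from at most 0.0727 to 5.71 and 5.27 FPKM, while Pdgfra went from 10.3 and 12 to 0.745 and 0.971 FPKM. The part of these markers in the results below was not tested.

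The 9 genes did not respond as a block. In normoxia, differentiation medium raised 5 of them and lowered 3, and 1 did not pass the test. Across all genes 66.5% were called in that comparison, so 8 of 9 stands against a background in which most genes were called. Calls are those of limma on log2(FPKM + 1) with a Benjamini-Hochberg adjusted p under 0.05 over all genes tested. In hypoxia the same change of medium raised 4 members and lowered 1, with a background of 40.9%. Hypoxia in growth medium raised 2 and lowered 5, with a background of 41.4%, and hypoxia in differentiation medium raised 2 and lowered 5, with a background of 65.2%. Cav3, which passed the filter only through normoxic differentiation medium, is counted among the 5 raised and the 5 lowered in comparisons with that group. Those calls of Cav3 are a description. Set against normoxic growth medium, hypoxic differentiation medium had 2 members higher and 5 lower, with a background of 48.6%. The median log2 change of the 9 members was 0.73 for differentiation medium in normoxia, where that of all genes was -0.20, and it was 0.28 in hypoxia, where that of all genes was 0.07. For hypoxia it was -0.41 in growth medium and -0.49 in differentiation medium, beside -0.14 and 0.15 over all genes. After median-of-ratios scaling of the libraries the medians of all genes lay between -0.02 and 0.02, so small changes depend on the scale.

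**Figure D1:**
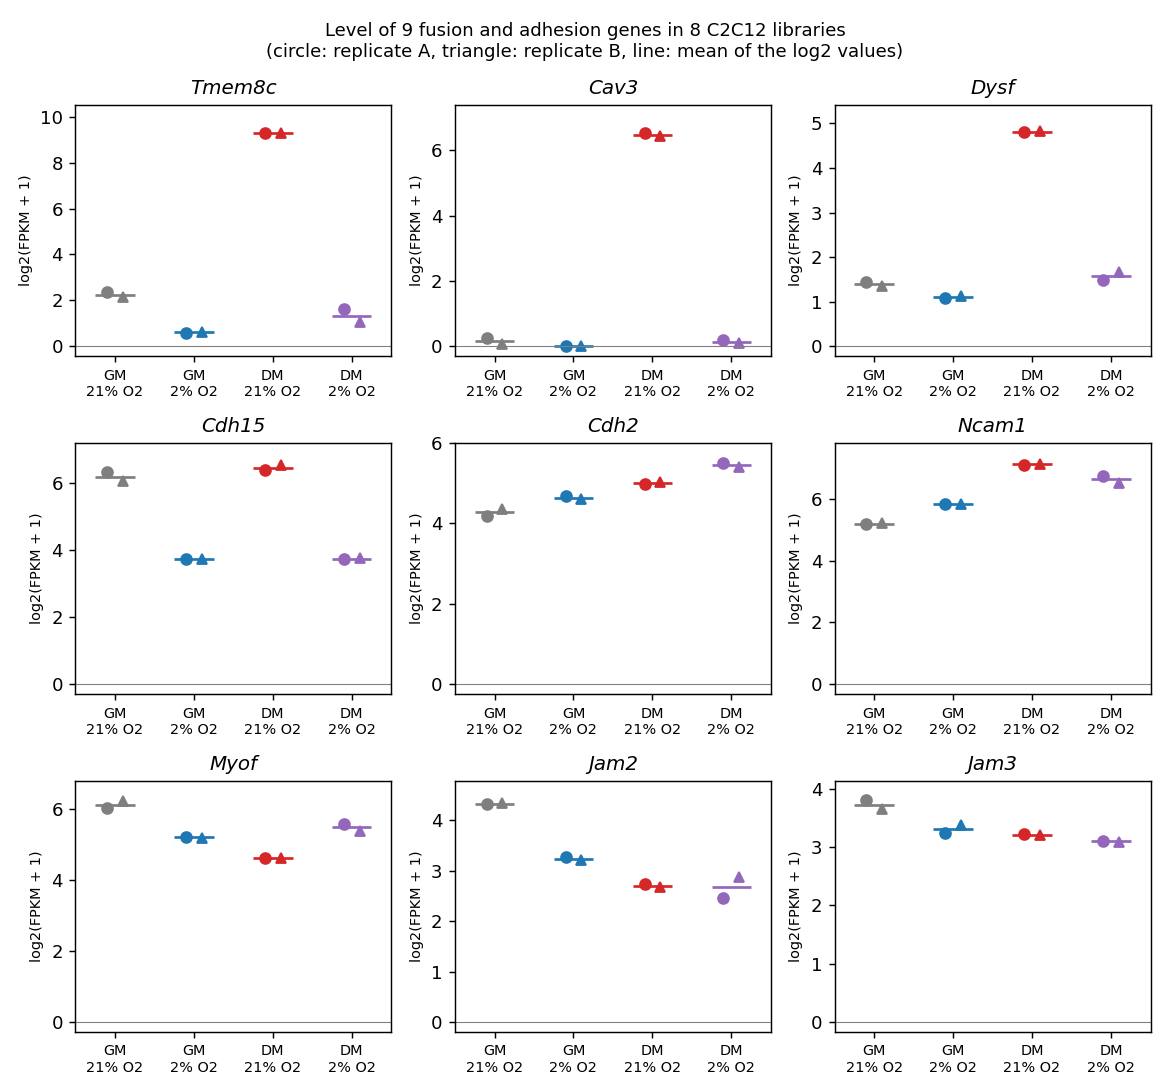
Level of each of the 9 genes as log2(FPKM + 1), in growth medium (GM) and differentiation medium (DM) at 21% or 2% oxygen, with 1 symbol per library and a line at the mean of the 2 libraries. Tmem8c, Cav3 and Dysf are high in normoxic differentiation medium alone among the 4 groups, Cdh15 separates by oxygen and Jam2 and Jam3 are highest in normoxic growth medium.

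**Figure D2:**
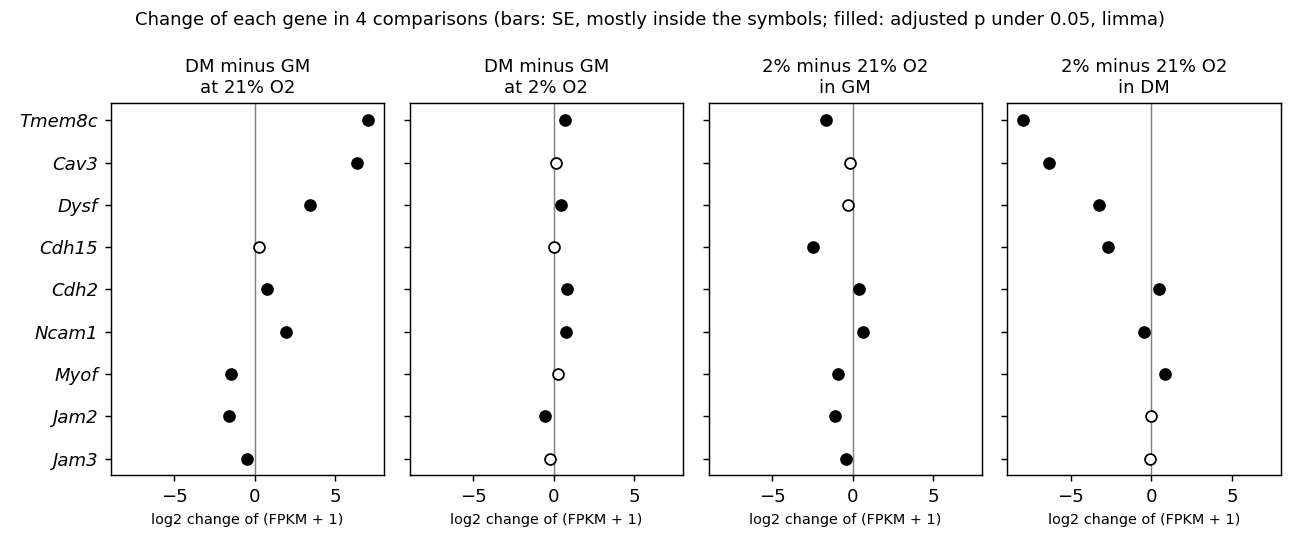
Log2 change of (FPKM + 1) for the 9 genes in the 4 comparisons of groups that differ in medium or in oxygen, with SE bars that mostly lie inside the symbols and filled symbols for an adjusted p under 0.05. The changes run from -7.97 (Tmem8c, hypoxia in differentiation medium) to 7.04 (Tmem8c, differentiation medium in normoxia). On this scale the hypoxic response to differentiation medium stays within 1 log2 unit for every gene. At a pseudocount of 0.1 that response was 1.33 for Tmem8c and 1.01 for Cav3, which was not called.

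The fusion gene Tmem8c had the widest range of the 9 in FPKM and in log2(FPKM + 1). It stood at 625 and 632 FPKM in the normoxic differentiation libraries A and B. In normoxic growth medium it was 4.12 and 3.44 FPKM, in hypoxic growth medium 0.501 and 0.561 FPKM, and in hypoxic differentiation medium 2.08 and 1.06 FPKM. No 2 groups overlapped, and the order from high to low was normoxic differentiation, normoxic growth, hypoxic differentiation and hypoxic growth medium. In a bulk library, fewer cells that express a gene and less RNA per cell cannot be told apart, and this holds for every gene below.

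Hypoxia lowered Tmem8c in growth medium, before any change of medium, by a factor of 7.12 (log2 change -1.64 ± 0.19 SE, adjusted p 0.000913). In differentiation medium the ratio of normoxia to hypoxia was 400.3 (-7.97 ± 0.19, adjusted p 3.27e-07). The rise with differentiation medium in normoxia was 166-fold (7.04 ± 0.19, adjusted p 6.08e-07). Tmem8c rose in hypoxia too, 2.96-fold (0.72 ± 0.19, adjusted p 0.0238), yet hypoxic differentiation cells remained below the normoxic growth cells that had not been induced (-0.92 ± 0.19, adjusted p 0.00728). The hypoxic rise was lost in a fit of the 4 hypoxic libraries alone (adjusted p 0.0914) or when hypoxic growth library A (0.108) or B (0.0933) or normoxic differentiation library A (0.0585) or B (0.0597) was left out. The change was 0.43 without hypoxic differentiation library A and 1.01 without library B, each past the threshold.

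Gm7325, the table's name for the myomerger gene, was the closest partner of Tmem8c by function. It was 3.28 and 4.38 FPKM in normoxic growth medium and 402 and 401 FPKM in normoxic differentiation medium, a rise of 6.39 ± 0.19 (adjusted p 9.99e-07). Its low values were close to whole multiples of a common step, with a largest deviation of 0.04 of a step. The search accepted only steps with deviations under 0.05, so this closeness does not show that the step is 1 fragment. Taking that step as 1 fragment, the libraries held 64 and 110 fragments in normoxic growth medium, 6 and 6 in hypoxic growth medium and 22 and 4 in hypoxic differentiation medium. The ratio of normoxic to hypoxic growth medium was 15.7 after scaling for depth, with an exact 95% interval of 8.79 to 31.1 that covers counting error alone (limma log2 change -1.94 ± 0.19, adjusted p 0.000526). Unlike Tmem8c, Gm7325 did not pass the test for differentiation medium in hypoxia (0.25 ± 0.19, adjusted p 0.353), and the 2 hypoxic groups overlapped. The fragment ratio of hypoxic differentiation to hypoxic growth medium was 2.3 (exact 95% interval 1.12 to 5.0, counting error alone), at levels where log2(FPKM + 1) compresses a change, and 22 of those 26 fragments came from library A. Whether the 2 genes differ in that response was not tested.

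Cav3 encodes the caveolin of muscle. It was at 90.6 and 84.9 FPKM in normoxic differentiation medium and at most 0.196 FPKM in the other 6 libraries, with both hypoxic growth libraries listed at 0. The 4 values above 0 among them were multiples of 1 step within 0.05 of a step, the limit set in the search for it. If that step is 1 fragment, they stand for 3 and 1 fragments in normoxic growth medium and 3 and 1 in hypoxic differentiation medium. The counts were then 1365 and 1606 in normoxic differentiation medium. Between the last group and normoxic growth medium the depth-scaled ratio of fragments was 769 (exact 95% interval 300.1 to 2825), and between it and hypoxic differentiation medium it was 788 (307 to 2894). These intervals cover counting error alone. In the limma fit Cav3 rose by 6.31 ± 0.11 with differentiation medium in normoxia (adjusted p 1.82e-07) and was lower by -6.33 ± 0.11 with hypoxia in differentiation medium (adjusted p 1.40e-07). As Cav3 entered the test only through normoxic differentiation medium, these differences are given as a description. Among the 3 remaining groups no difference passed the test, although both hypoxic growth libraries (at 0) lay below all 4 of the others: the change with differentiation medium in hypoxia was 0.14 ± 0.11 (adjusted p 0.332), that with hypoxia in growth medium -0.16 ± 0.11 (adjusted p 0.261, or 0.0464 at a pseudocount of 0.1), and hypoxic differentiation and normoxic growth libraries overlapped.

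Cav1 is the caveolin of most other cell types. In growth medium Cav1 was 144 and 150.4 FPKM in normoxia and 173 and 151 FPKM in hypoxia. In differentiation medium it was 35.7 and 33.0 FPKM in normoxia and 253 and 192 FPKM in hypoxia. Cav1 thus fell 4.29-fold with differentiation medium in normoxia (-2.07 ± 0.14, adjusted p 2.91e-05) and rose in hypoxia (0.44 ± 0.14, adjusted p 0.0433). Cav3 exceeded Cav1 in one group only, normoxic differentiation medium, with a log2 ratio of (FPKM + 1) of 1.32 and 1.34 in its libraries. In the other 6 libraries the log2 ratio lay between -7.8 and -6.92. With Cav3 near 0 these values are set by the pseudocount and by Cav1, and at a pseudocount of 0.1 the group means were -9.45 (normoxic growth), -10.66 (hypoxic growth) and -10.1 (hypoxic differentiation). Among the proteins that coat caveolae with the caveolins, Ptrf (cavin 1) fell from 187 ± 14.1 to 45.6 ± 2.37 FPKM (SD, n = 2) with differentiation medium in normoxia (-2.01 ± 0.10, adjusted p 8.77e-06), and the muscle-restricted Murc (cavin 4) rose from 13.9 ± 2.14 to 132 ± 6.84 FPKM (3.16 ± 0.16, adjusted p 8.48e-06). Hypoxia in growth medium raised Murc to 43.1 and 39.4 FPKM (1.51 ± 0.16, adjusted p 0.000656). In differentiation medium Murc was lower in hypoxia than in normoxia, at 27.2 and 20.2 FPKM (-2.44 ± 0.16, adjusted p 2.4e-05). With differentiation medium in hypoxia it fell (-0.79 ± 0.16, adjusted p 0.00929).

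Promoter windows of 4 of the 9 genes (Cav3, Cdh15, Dysf and Myof) were searched, from a RefSeq table of build GRCm38.p6, matched by symbol. The selection left out the chromosome that carries Cdh2, so the absence of Cdh2 here says nothing about its promoter. The expression values were made on build mm9, and no coordinate was carried between the builds. Each window holds 250 bases before an annotated transcript start and 50 after it. The pair shown here is that of Cav3, high only where cells were induced in normoxia, and of Cdh15, whose level followed oxygen. Cav3 lies at chr6:112459255-112459554 on the plus strand and Cdh15 at chr8:122848124-122848423 on the plus strand. Capitals mark matches to the E-box CANNTG, the short site that MyoD-type factors bind, searched on both strands:
Cav3: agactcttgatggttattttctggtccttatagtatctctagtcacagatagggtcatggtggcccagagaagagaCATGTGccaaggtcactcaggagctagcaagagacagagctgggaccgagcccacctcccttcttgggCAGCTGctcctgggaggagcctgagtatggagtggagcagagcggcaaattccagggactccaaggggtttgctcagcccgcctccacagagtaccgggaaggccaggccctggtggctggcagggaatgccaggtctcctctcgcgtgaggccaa
Cdh15: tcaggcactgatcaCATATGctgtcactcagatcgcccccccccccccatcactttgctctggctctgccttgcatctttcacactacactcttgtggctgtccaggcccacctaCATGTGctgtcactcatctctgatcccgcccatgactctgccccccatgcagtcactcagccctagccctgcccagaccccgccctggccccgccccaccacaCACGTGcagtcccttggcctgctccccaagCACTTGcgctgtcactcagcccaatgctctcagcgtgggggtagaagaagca

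The Cav3 window holds 2 E-boxes, CATGTG with its first base at -174 and CAGCTG at -106 from the start, counting the first transcribed base as 1. The Cdh15 window holds 4, at -236, -135, -32 and -2, none of them CAGCTG. The Dysf table has 2 starts, of which the first has no CANNTG and the second has 1, and the Myof window has none. A CANNTG match is found in 72.3% of the 32851 windows of the table and CAGCTG in 16.3%, so a match in 1 window is common. The core of the hypoxia response element, ACGTG, is present on both strands of the single CACGTG at -32 of Cdh15, in the first Dysf window and in neither Cav3 nor Myof, against 19.6% of all windows. The muscle element CATTCC (MCAT) is in the Cav3 window alone of the 5 (14.7% of all windows), and the MEF2 motif is in none of them (3.19%). These are letters in a window, and no binding was measured here.

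The ferlins Dysf and Myof are related membrane proteins that are best known for repair of the muscle plasma membrane (dysferlin) and for myoblast fusion (myoferlin). In differentiation medium Dysf was 26.9 and 27.5 FPKM in normoxia and 1.81 and 2.19 FPKM in hypoxia. In growth medium it was 1.70 and 1.56 FPKM in normoxia and 1.13 and 1.20 FPKM in hypoxia. Its normoxic differentiation libraries were thus the high ones, and the other 3 groups lay close together without overlap. Dysf rose 16.7-fold with differentiation medium in normoxia (3.42 ± 0.11, adjusted p 1.07e-06) and 1.72-fold in hypoxia (0.47 ± 0.11, adjusted p 0.0138). The hypoxic rise was lost in a fit of the 4 hypoxic libraries (adjusted p 0.0765) and without hypoxic growth library A (0.0856) or B (0.0687). Hypoxia lowered Dysf in differentiation medium (-3.23 ± 0.11, adjusted p 1.26e-06). In growth medium the oxygen difference of Dysf was -0.28 ± 0.11 (adjusted p 0.0738), past the threshold at a pseudocount of 0.1 (-0.45, adjusted p 0.0481), with array quality weights (0.0402) and without hypoxic differentiation library A (0.0242) or B (0.0252).

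Myof had the opposite course in normoxia. It was 63.9 and 73.3 FPKM in normoxic growth medium and 23.5 and 23.7 FPKM in normoxic differentiation medium, a fall to 0.344 of its level (-1.50 ± 0.10, adjusted p 2.45e-05). Hypoxic growth cells had 36.1 and 35.6 FPKM, which is lower than in normoxic growth medium (-0.91 ± 0.10, adjusted p 0.000669). Hypoxic differentiation cells had 46.6 and 40.9 FPKM, above their hypoxic growth counterparts in both libraries without passing the threshold (0.28 ± 0.10, adjusted p 0.0600). That change passed it without normoxic growth library A (adjusted p 0.0467) or B (0.0470) or hypoxic differentiation library B (0.37, adjusted p 0.0246). In differentiation medium Myof was therefore higher in hypoxia than in normoxia (0.86 ± 0.10, adjusted p 0.000290), the reverse of its difference in growth medium.

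The balance of the 2 ferlins changed with these moves. In growth medium Myof exceeded Dysf 42.1-fold in normoxia and 30.8-fold in hypoxia, and in hypoxic differentiation medium 21.9-fold. In normoxic differentiation medium Dysf was 1.15 times Myof, with a log2 ratio of (FPKM + 1) of 0.19 and 0.21 in the 2 libraries against values between -4.86 and -3.71 in the other 6. The ratios are given as values, with no test. Trim72 (MG53), a muscle protein that seals membrane lesions, was 99.1 and 101 FPKM in normoxic differentiation medium and between 0.0904 and 0.480 FPKM in the other 6 libraries. Like Cav3, Trim72 passed the 1 FPKM filter only through that group, so its large difference there is given as a description. In hypoxia its log2 change with differentiation medium was 0.32 ± 0.10 (adjusted p 0.0433), at levels where log2(FPKM + 1) is compressed.

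**Figure D3:**
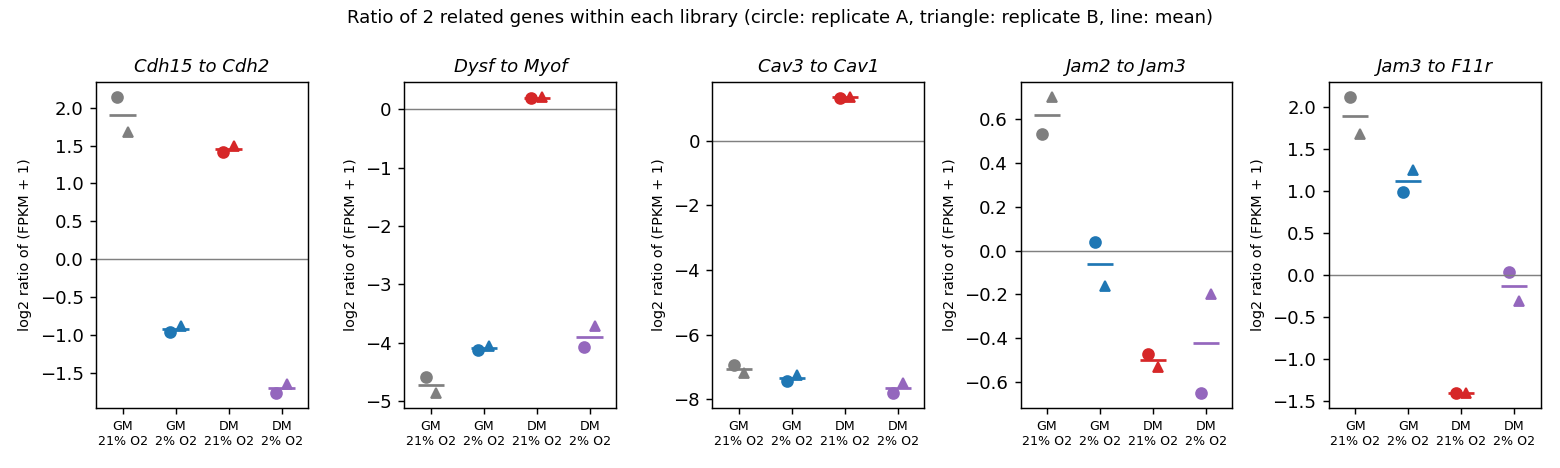
Log2 ratio of (FPKM + 1) between 2 related genes within each library, for the 4 groups of medium (GM growth, DM differentiation) and oxygen, with 1 symbol per library, a line at the mean and a grey line at equal levels. Cdh15 exceeds Cdh2 in both normoxic groups and is below it in both hypoxic groups, while Dysf to Myof and Cav3 to Cav1 lie above 0 in normoxic differentiation medium alone.

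Cdh15 (M-cadherin), the cadherin of satellite cells and myoblasts, separated the libraries by oxygen. It was 78.7 and 64.9 FPKM in normoxic growth medium and 82.5 and 91.0 FPKM in normoxic differentiation medium. In hypoxia it was 12.2 and 12.2 FPKM in growth medium and 12.3 and 12.5 FPKM in differentiation medium. The 4 hypoxic libraries lay close together, far below the 4 normoxic ones. Hypoxia lowered Cdh15 by a factor of 5.90 in growth medium (-2.46 ± 0.11, adjusted p 3.06e-05) and 7.0 in differentiation medium (-2.71 ± 0.11, adjusted p 2.59e-06). The response to differentiation medium did not pass the threshold in normoxia (0.27 ± 0.11, adjusted p 0.0564), and in hypoxia it was 0.02 ± 0.11 (adjusted p 0.882), with a sign that flipped after median-of-ratios (-0.03) and upper-quartile scaling (-0.06). The normoxic difference of Cdh15 was past the threshold without normoxic growth library A (0.41, adjusted p 0.0132) and with array quality weights (0.0362). It was 0.54 under median-of-ratios scaling (adjusted p 0.00396) and 0.41 under upper-quartile scaling (adjusted p 0.0144).

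Cdh2 (N-cadherin), which muscle cells share with neurons and many mesenchymal cells, was never low. Its 8 libraries ran from 17.1 to 44.1 FPKM. In growth medium it was 17.1 and 19.6 FPKM in normoxia and 24.6 and 23.2 FPKM in hypoxia. In differentiation medium it was 30.4 and 31.5 FPKM in normoxia and 44.1 and 41.4 FPKM in hypoxia, so the 4 groups rank in the order given with no overlap. Differentiation medium raised Cdh2 at both oxygen levels, 0.73 ± 0.09 in normoxia (adjusted p 0.000459) and 0.81 ± 0.09 in hypoxia (adjusted p 0.00118). Hypoxia raised it in growth medium (0.37 ± 0.09, adjusted p 0.0183) and in differentiation medium (0.45 ± 0.09, adjusted p 0.00422). The first of these calls was lost without normoxic growth library A (adjusted p 0.0744) and without hypoxic growth library A (0.115) or B (0.0641), and the second under median-of-ratios scaling (0.26, adjusted p 0.0738).

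The order of the 2 cadherins therefore followed oxygen. Cdh15 was 3.91 times Cdh2 in normoxic growth medium and 2.80 times in normoxic differentiation medium. Cdh2 was 1.97 times Cdh15 in hypoxic growth medium and 3.45 times in hypoxic differentiation medium. The log2 ratio of (FPKM + 1) was between 1.41 and 2.14 in the 4 normoxic libraries and between -1.77 and -0.88 in the 4 hypoxic ones. A plain FPKM ratio within a library does not move with the scaling between libraries, while that of (FPKM + 1) can move through the added 1. Of the other cadherins, Cdh11 fell with both factors, from 10.1 ± 0.166 FPKM in normoxic growth medium to 1.88 ± 0.124 FPKM in hypoxic differentiation medium (-1.95 ± 0.10, adjusted p 2.33e-05). Cdh4 (R-cadherin) was listed at 0 in 7 libraries and at 0.00834 FPKM in the last. Cdh13, which is anchored to the membrane by a lipid, was raised by hypoxia in growth medium from 23.5 ± 1.66 to 62.9 ± 2.41 FPKM (1.39 ± 0.09, adjusted p 0.000116). In differentiation medium Cdh13 was lower in hypoxia, 28.4 ± 2.3 against 41.8 ± 1.05 FPKM (-0.55 ± 0.09, adjusted p 0.00167). Myod1, the myogenic factor present before differentiation, was 123 ± 21.6 and 176 ± 6.35 FPKM in the normoxic groups (growth, then differentiation medium) and 25.6 ± 0.743 and 9.38 ± 3.44 FPKM in the hypoxic ones, given here beside Cdh15 as a value.

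Ncam1, the neural cell adhesion molecule that myoblasts carry during fusion, rose with differentiation medium at both oxygen levels. In growth medium it was 35.3 and 36.1 FPKM in normoxia and 55.8 and 56.2 FPKM in hypoxia. In differentiation medium Ncam1 was 135 and 140.2 FPKM in normoxia and 106 and 90.2 FPKM in hypoxia. No groups overlapped, and hypoxic growth libraries were the higher of their medium, normoxic differentiation libraries the higher of theirs. The rise was 3.85-fold in normoxia (1.92 ± 0.09, adjusted p 5.89e-06) and 1.75-fold in hypoxia (0.79 ± 0.09, adjusted p 0.00118). Hypoxia raised Ncam1 in growth medium (0.64 ± 0.09, adjusted p 0.00192) and lowered it in differentiation medium (-0.49 ± 0.09, adjusted p 0.00258). By mean FPKM Ncam1 was 1.41-fold lower in hypoxic than in normoxic differentiation medium, beside 400.3-fold for Tmem8c and 13.6-fold for Dysf. Hypoxic differentiation cells held 2.74 times the Ncam1 of normoxic growth cells (1.43 ± 0.09, adjusted p 4.55e-05).

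Jam2 (JAM-B) and Jam3 (JAM-C) bind each other across cell contacts, and the pair is needed for myocyte fusion in zebrafish. In growth medium Jam2 was 19.0 and 19.3 FPKM in normoxia and 8.68 and 8.24 FPKM in hypoxia. In differentiation medium it was 5.69 and 5.39 FPKM in normoxia and 4.51 and 6.40 FPKM in hypoxia. The differentiation groups overlapped, and the normoxic growth libraries were more than 2 times as high as any other. Jam2 fell with differentiation medium in normoxia (-1.62 ± 0.15, adjusted p 0.000101) and in hypoxia (-0.57 ± 0.15, adjusted p 0.0219), and with hypoxia in growth medium (-1.09 ± 0.15, adjusted p 0.00163). The hypoxic fall was lost in a fit of the 4 hypoxic libraries (adjusted p 0.0857) and without hypoxic growth library A (0.112) or B (0.0875) or normoxic differentiation library A (0.0525) or B (0.0533). The fall was -0.35 without hypoxic differentiation library A and -0.78 without library B. In differentiation medium the oxygen difference was -0.03 ± 0.15 (95% interval -0.38 to 0.31, adjusted p 0.847), or 0.18 without hypoxic differentiation library A and -0.25 without library B (adjusted p 0.0493).

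Jam3 had the narrowest range of the 9, from 7.52 to 12.9 FPKM over the 8 libraries. In growth medium it was 12.9 and 11.5 FPKM in normoxia and 8.4 and 9.35 FPKM in hypoxia. In differentiation medium Jam3 was 8.29 and 8.21 FPKM in normoxia and 7.61 and 7.52 FPKM in hypoxia. Normoxic growth libraries were the high ones, and the other 3 groups lay close together without overlap. Jam3 fell with differentiation medium in normoxia (-0.51 ± 0.10, adjusted p 0.00369) and with hypoxia in growth medium (-0.41 ± 0.10, adjusted p 0.0156). Under median-of-ratios scaling both calls were lost (-0.26, adjusted p 0.0640, and -0.29, adjusted p 0.0696), and the second also under upper-quartile scaling (0.0975) and without library A of normoxic (0.0737) or hypoxic growth medium (0.113). In hypoxia the response to differentiation medium was -0.20 ± 0.10 (95% interval -0.44 to 0.03, adjusted p 0.145). The oxygen difference in differentiation medium was -0.11 ± 0.10 (95% interval -0.35 to 0.13, adjusted p 0.354), or -0.28 under median-of-ratios scaling (adjusted p 0.0496). Jam2 was above Jam3 in normoxic growth medium, 1.57 times, and below it in normoxic differentiation medium, at 0.672 times.

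F11r (JAM-A) belongs to the same family. It was 2.18 and 2.90 FPKM in normoxic growth medium and 23.6 and 23.3 FPKM in normoxic differentiation medium, a 9.23-fold rise (2.80 ± 0.15, adjusted p 1.15e-05). In hypoxia it rose from 3.72 and 3.35 to 7.37 and 9.48 FPKM (1.05 ± 0.15, adjusted p 0.00264). Jam3 was 4.79 times F11r in normoxic growth medium, and F11r was 2.84 times Jam3 in normoxic differentiation medium.

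The interaction is the response to differentiation medium in hypoxia minus that in normoxia, and 54.1% of all genes passed its test. Of the 9 genes, 6 passed it, 4 with a more negative and 2 with a more positive response in hypoxia. The negative ones were Tmem8c (-6.33 ± 0.27, adjusted p 9.76e-06), Cav3 (-6.16 ± 0.15, adjusted p 1.96e-06), Dysf (-2.95 ± 0.15, adjusted p 2.01e-05) and Ncam1 (-1.13 ± 0.12, adjusted p 0.000486), all of which rose in normoxia. Cav3 passed the filter only through normoxic differentiation medium, so its interaction is given as a description. Myof (1.78 ± 0.14, adjusted p 0.000114) and Jam2 (1.06 ± 0.21, adjusted p 0.00521), which fell in normoxia, had the positive ones. Each of the 6 held without either hypoxic differentiation library. The other 3 did not pass: Cdh15 at -0.25 ± 0.15 (95% interval -0.61 to 0.11, adjusted p 0.200), Jam3 at 0.30 ± 0.14 (-0.03 to 0.64, adjusted p 0.108) and Cdh2 at 0.09 ± 0.13 (-0.22 to 0.39, adjusted p 0.588), whose sign flipped after median-of-ratios (-0.23) and upper-quartile scaling (-0.13). The interaction of Cdh15 was -0.57 under median-of-ratios scaling (adjusted p 0.0192), -0.47 under upper-quartile scaling (adjusted p 0.0405) and -0.39 without normoxic growth library A (adjusted p 0.0443).

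**Figure D4:**
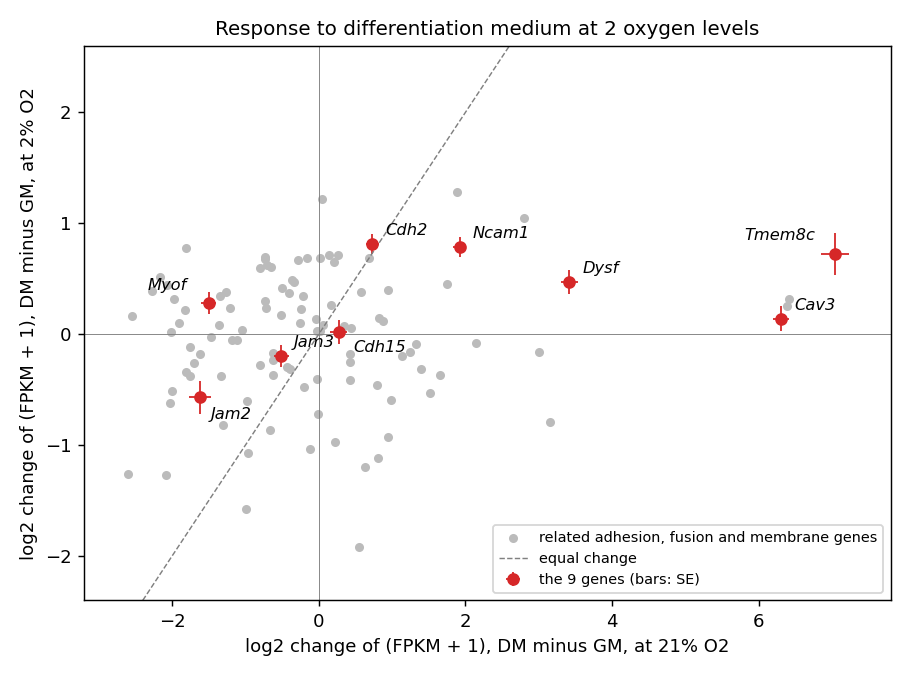
Log2 change of (FPKM + 1) from growth medium (GM) to differentiation medium (DM) at 21% oxygen (horizontal axis) and at 2% oxygen (vertical axis, on a wider scale), for the 9 genes in red with SE bars and 101 related genes in grey, with a dashed line at equal change. Cdh2 (0.73 and 0.81) is the nearest to the dashed line of the 5 members that rose in normoxia, and Tmem8c and Cav3 lie far to its right, at 7.04 and 6.31 in normoxia and 0.72 and 0.14 in hypoxia.

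The wider set of adhesion, fusion, caveolar and membrane repair genes held 130 further genes, of which 101 were tested. In normoxia differentiation medium raised 29 and lowered 48 of the 101 (median log2 change -0.29, against -0.20 over all genes), and in hypoxia it raised 26 and lowered 23 (0.04, against 0.07). Hypoxia raised 18 and lowered 38 in growth medium (-0.09, against -0.14) and raised 46 and lowered 37 in differentiation medium (0.12, against 0.15). In each comparison the share of the set that was called exceeded that of all genes: 76.2% against 66.5% and 48.5% against 40.9% for differentiation medium in normoxia and hypoxia, and 55.4% against 41.4% and 82.2% against 65.2% for hypoxia in growth and differentiation medium. The set's medians were within 0.1 of those of all genes, and no test of these differences was made.

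Within the 25 tested genes for ferlins, annexins and membrane repair, the members left out, 16 fell and 6 rose with differentiation medium in normoxia (median -0.74), or 88.0% called against 66.5% of all genes, of which 5080 fell and 3161 rose of 12389 (median -0.20). Anxa1, an annexin that binds wounded membrane, fell from 367 ± 5.66 to 74.6 ± 2.2 FPKM (-2.28 ± 0.13, adjusted p 1.44e-05), and S100a10, a partner of Anxa2, from 1448 ± 3.70 to 247 ± 11 FPKM (-2.55 ± 0.18, adjusted p 3.52e-05). With hypoxia in differentiation medium 15 of the 25 were higher and 7 lower (median 0.70), or 88.0% called against 65.2% of all genes, of which 4644 were higher and 3431 lower (median 0.15). S100a11 was then 2239 ± 114 against 264 ± 15.7 FPKM (3.08 ± 0.11, adjusted p 2.01e-06) and S100a10 1651 ± 458 against 247 ± 11 FPKM (2.71 ± 0.18, adjusted p 2.56e-05). In hypoxia, differentiation medium raised Anxa2 from 1235 ± 44.4 to 2114 ± 87.3 FPKM (0.78 ± 0.11, adjusted p 0.00236) and Ehd4, a membrane-remodelling ATPase, from 5.98 ± 0.243 to 17.1 ± 9.0 FPKM (1.28 ± 0.30, adjusted p 0.0160). It lowered Capn3, the muscle calpain, from 16.8 ± 0.977 to 4.97 ± 0.844 FPKM (-1.58 ± 0.15, adjusted p 0.000655). In normoxia too it raised Ehd4 (1.89 ± 0.30, adjusted p 0.00144) and lowered Capn3 (-0.99 ± 0.15, adjusted p 0.000993), while Anxa2 fell there (-1.81 ± 0.11, adjusted p 1.78e-05).

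Among the 35 tested fusion and fusion signalling genes, 12 rose and 13 fell with differentiation medium in normoxia, a share of 71.4% that is near the 66.5% of all genes. With hypoxia in growth medium 6 rose and 15 fell, 60% against 41.4% of all genes. Cxcr4, the receptor of a chemokine that guides muscle precursors, fell from 90.8 ± 7.8 to 14.1 ± 1.26 FPKM in normoxia (-2.60 ± 0.09, adjusted p 2.15e-06). Il4ra, a subunit of the interleukin-4 receptor, fell from 17.4 ± 1.15 to 3.91 ± 0.979 FPKM with differentiation medium in hypoxia (-1.92 ± 0.16, adjusted p 0.000467). In normoxia Il4ra rose from 18.1 ± 2.05 to 27.0 ± 2.04 FPKM (0.55 ± 0.16, adjusted p 0.0188). Ptgs2, a prostaglandin synthase, was raised by hypoxia in growth medium from 3.65 ± 0.305 to 15.6 ± 1.89 FPKM (1.83 ± 0.32, adjusted p 0.00505). In differentiation medium Ptgs2 was lower in hypoxia, 14.9 ± 8.25 against 36.4 ± 1.91 FPKM (-1.34 ± 0.32, adjusted p 0.00984). The sarcoglycan gene Sgca was lowered by hypoxia from 14.8 ± 3.02 to 2.67 ± 0.292 FPKM in growth medium (-2.09 ± 0.21, adjusted p 0.000520) and was 48.1 ± 0.152 against 1.90 ± 0.774 FPKM in differentiation medium (-4.11 ± 0.21, adjusted p 7.91e-06).

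The 23 tested immunoglobulin-type adhesion genes and the 10 tested cadherin and catenin genes moved in both directions. With differentiation medium in normoxia, 6 of the 23 rose and 10 fell (69.6%), and 2 of the 10 rose and 5 fell (70.0%), both near the 66.5% of all genes. With hypoxia in growth medium 4 rose and 5 fell of the 23 (39.1%), and 2 rose and 6 fell of the 10 (80.0%), against 41.4% of all genes. Vcam1, a ligand of integrins on myoblasts, was the largest of these falls, from 65.4 ± 4.30 to 4.48 ± 0.788 FPKM (-3.60 ± 0.15, adjusted p 2.77e-05). Alcam fell with differentiation medium in hypoxia from 11.9 ± 0.558 to 4.49 ± 1.60 FPKM (-1.27 ± 0.23, adjusted p 0.00648). It fell in normoxia as well, from 6.16 ± 1.69 to 0.673 ± 0.0243 FPKM (-2.08 ± 0.23, adjusted p 0.000272). The catenin-like Ctnnal1 was higher in hypoxic than in normoxic differentiation medium, 20.5 ± 0.619 against 1.93 ± 0.194 FPKM (2.88 ± 0.09, adjusted p 1.13e-06). Of the 8 tested caveolar genes other than Cav3, 3 rose and 4 fell with differentiation medium in normoxia (87.5% against 66.5% of all genes), and Sdpr (cavin 2) was lowered by hypoxia in growth medium from 25.4 ± 0.875 to 4.59 ± 0.393 FPKM (-2.24 ± 0.17, adjusted p 0.000205).

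The genes closest in pattern to each member were found by Pearson's r of log2(FPKM + 1) over the 8 libraries, among 7865 genes with a group mean of at least 10 FPKM. These r describe 4 groups of 2 libraries that share their conditions and carry no test. Tmem8c was most like Pbxip1 and Tnni2 (r = 0.9992 for each), Cav3 most like Ripply1 and Cacna1s (0.9998 for each) and Dysf most like Apol9b (0.9989) and Myom2 (0.9988). An r takes no account of the size of a change. Pbxip1 averaged 51.5 and 148 FPKM in normoxic growth and differentiation medium, and 41.0 and 44.5 FPKM in the hypoxic ones. Cdh15 was most like Ube2d1 (0.9986), which was 44.4 and 47.7 FPKM on average in the normoxic groups (growth, then differentiation medium) and 23.1 and 23.2 FPKM in the hypoxic ones, and Tubb2a (0.9975). The closest genes to Ncam1 were Psat1 (0.9962) and Sel1l (0.9939), to Myof Car13 (0.9952) and C1s1 (0.9855), to Jam2 Mnd1 (0.9969) and Znf512b (0.9962), to Jam3 Tsen34 (0.9926) and Acads (0.9914), and to Cdh2 Tcp1 (0.9775) and Sccpdh (0.9769). Among the members themselves r was 0.99 between Tmem8c, Cav3 and Dysf in each pair and 0.94 between Jam2 and Jam3, and Ncam1 ran against Jam2 at -0.92.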

How the data were processed

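RNA-seq of total RNA was made in 8 C2C12 libraries with a stranded protocol, per the labels' protocols. STAR 2.5.1b, Cufflinks 2.2.1 and build mm9 are named in the submitters' processing notes; the annotation, the use of strand and any scaling between libraries are not given in the sources used here. The authors deposited 1 gene table whose values behave as FPKM: they are not whole numbers and sum to between 480018 and 534167 per library. Absolute depth is not known. Relative depth is the commonest ratio of low values (at most 0.5 FPKM) between libraries. ChIP and input samples are not analysed here.

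Of 17914 genes above 0 in any library, 12389 with a group mean of at least 1 FPKM in 1 group were fitted in R 4.3.3 by limma 3.58.1 as 4 group means of log2(FPKM + 1), with an intensity trend, 4 residual and 2.61 prior degrees of freedom, two-sided tests and Benjamini-Hochberg adjustment over all genes of a contrast. Log2 changes are on this scale and understate those of genes near or below 1 FPKM, and plain fold values are ratios of mean FPKM, except for the Cav3 and Gm7325 ratios given with exact intervals, which are ratios of fragment equivalents scaled for depth. The script was tested on simulated data.

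The members and gene lists were chosen with earlier results of these data known. The genes named are the 9 members, 8 close relatives, 4 state markers, the 3 largest called rises and falls of the related genes in each comparison of a single factor (group mean of at least 5 FPKM, no overlap), and the 2 genes most alike each member. Cell type markers are named from their lists where they lead a sum or define the type, chosen after their values were seen. Alternatives were 2 other pseudocounts (0.1 and 0.5), 2 other filters, 2 scalings, other moderation and weights, subsets of libraries and a replicate block.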

Additional observations from a re-analysis of the deposited data

Results flagged for a closer look

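The response to differentiation medium differed between hypoxia and normoxia, by the limma interaction test, for 6 of the 9 genes. Of all genes tested, 54.1% passed the same test. The difference (hypoxia minus normoxia, log2 scale) was -6.33 for Tmem8c, -6.16 for Cav3, -2.95 for Dysf and -1.13 for Ncam1. It was 1.78 for Myof and 1.06 for Jam2. The value of Cav3 is a description, since Cav3 passed the filter only through normoxic differentiation medium. With 2 libraries a group, no search for single outlying libraries was made.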

How the results depend on the processing

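Over the alternatives, 966 of 1014 recomputed member changes kept their direction and side of the threshold, 22 lost a call, 18 gained one and 8 changed sign. Cdh15 with differentiation medium in hypoxia was -0.03 under median-of-ratios and -0.06 under upper-quartile scaling, and the Cdh2 interaction was -0.23 and -0.13. Leaving out 1 library, the Cdh2 interaction ran from -0.01 to 0.18 and the Jam2 oxygen difference in differentiation medium from -0.25 to 0.18. The Cav3 difference between hypoxic differentiation and normoxic growth medium, which differ in medium and in oxygen, ran from -0.12 to 0.07. None of these was called in the full fit. The cause was not tested.

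With differentiation medium in hypoxia, members called higher were 2, and lower 0, in a fit of the hypoxic libraries alone. They were 0 and 0 with a log2 change of at least 1 on the log2(FPKM + 1) scale. Leaving out 1 library they ran from 2 to 5 and from 0 to 1. With hypoxia in growth medium, members called higher ran from 1 to 2 on leaving out 1 library, and with a log2 change of at least 1 the counts were 0 higher and 3 lower. With hypoxia in differentiation medium, 1 was higher under median-of-ratios scaling and 0 with a log2 change of at least 1. Between hypoxic differentiation and normoxic growth medium, 2 were lower with that threshold. The shares of all genes called under these settings are not given here. Fewer member calls therefore cannot be told from a general loss of calls.

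At a pseudocount of 0.1 the log2 ratio of Dysf to Myof was -5.31, -4.83 and -4.39 in normoxic growth, hypoxic growth and hypoxic differentiation medium, and that of Jam2 to Jam3 -0.57 in normoxic differentiation medium. That of Cav3 to Cav1 was -9.45, -10.66, 1.35 and -10.1 (normoxic growth, hypoxic growth, normoxic and hypoxic differentiation medium). Jam3 to F11r was 2.23, 1.3 and -1.5 in the first 3 of these.

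The labels do not say that equal letters mark a shared culture, and the A minus B deviations of 2 groups correlated between -0.166 and 0.042 over 12389 genes. The replicate block left 5 members higher and 3 lower with differentiation medium in normoxia and moved no member count. A crossed block, with hypoxic growth letters exchanged and chosen after seeing the data, moved none. With 2 libraries a group, small changes near the threshold are limited by their number.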
